A study of Mus musculus with 5 samples.

Results

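The replication-dependent histone genes supply the core and linker histones that package newly made DNA, and their H3K27ac was described here in regulatory T (Treg) cells of the mouse large intestine. Members were the protein-coding genes of the GENCODE M21 annotation (mm10) whose symbol begins with Hist1h, Hist2h, Hist3h or Hist4h, which gave 67 of 21951 genes. Of the 124158 peaks in the count table, 55 overlapped a member or lay within 1 kb of it, and each was used once. The sort took CD3+CD4+ cells positive for Foxp3-YFP from C57BL/6 mice at 2 weeks of age, 60000 per library, and each library pooled littermates of both sexes. The Ctrl libraries (2) came from Foxp3Cre Setd2 flox/+ mice and the KO libraries (2) from Foxp3Cre Setd2 flox/flox mice. All of these animals thus carried Cre under the control of Foxp3, the lineage factor of Treg cells, and the Ctrl mice also had 1 floxed allele of Setd2, the H3K36 methyltransferase gene under study. H3K27ac was mapped by CUT&Tag, in which an antibody brings a transposase to the histone mark, and an IgG library made from pooled genotypes has no count column here and was not analysed.

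Acetylation of histone H3 at lysine 27 (H3K27ac) marks active promoters and enhancers. Replication-dependent histone genes are transcribed in S phase, when a cell doubles its DNA and needs new nucleosomes. H2A, H2B, H3 and H4 form the nucleosome core, and H1 binds the linker DNA where it enters and leaves the nucleosome. Most of these genes have no intron and lie side by side in clusters, and their mRNAs end in a conserved stem-loop instead of a poly(A) tail. A few members are made mainly in germ cells, among them Hist1h1t, Hist1h2aa and Hist1h2ba.

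The Hist1 cluster on chromosome 13 held 54 members and 43 peaks, the Hist2 cluster on chromosome 3 held 10 members and 8 peaks, the Hist3 cluster on chromosome 11 held 2 members and 3 peaks, and the Hist4 locus on chromosome 6 held 1 of each. Gaps of over 100 kb split the Hist1 cluster into blocks of 18, 5 and 29 genes and a last block that held only Hist1h2ba and Hist1h2aa. By product, 6 members encode H1, 18 encode H2A, 18 encode H2B, 12 encode H3 and 13 encode H4.

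The class was checked by its 3′ end. Within 150 bases after the stop codon, a hairpin with a stem of 6 bases and a loop of 4 was found in the reference sequence (GRCm38.p6) of 65 of the 67 members, and was not found for Hist1h2an and Hist2h2be. It began 22 to 59 bases after the stop codon (median 31). The most frequent forms are shown because this element defines the class, with the stem in capitals and the loop in lower case.
41 genes, all H1 genes but Hist1h1t among them: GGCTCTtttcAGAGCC
9 genes, Hist1h1t and Hist1h2ba among them: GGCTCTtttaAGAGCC
8 genes, Hist4h4 among them: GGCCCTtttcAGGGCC
2 genes, Hist2h4 and Hist1h4i: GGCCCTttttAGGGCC

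Promoter windows from RefSeq (GRCm38.p6, 250 bases before to 50 after the start site) were matched for 62 of the 67 members, with none matched for Hist1h3f, Hist1h2bc, Hist1h3a, Hist2h2be and Hist2h4. Letters were searched on both strands, and a match is a description of the sequence and not of a bound site. CCAAT occurred in 53 of the 62 windows, against 37.4% of 32851 windows of all genes, and was present in every matched H1, H2A, H2B and H3 window but in 3 of 12 H4 windows. TATAAA occurred in 35 windows (56.5%, against 13.6% of all). The octamer ATTTGCAT, a known binding site of the Oct factors, occurred in 7 of 18 H2A and 6 of 16 H2B windows and in no H1, H3 or H4 window, against 1.74% of all windows. Windows of back-to-back genes can overlap, so a single octamer can count for both genes, as for Hist1h2ah and Hist1h2bk. The median share of G and C was 45.3% in the member windows, against 52.7% in all. AAACACA, the H1 box, occurred in 5 of 6 H1 windows and 4 windows of the other families (7.18% of all), and GGTCCG in 11 of 12 H4 windows and 2 others (8.25% of all).

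The H1 promoters are shown because the H1 box and CCAAT also stood before the start of Hist1h1t, which had no peak there. Each line is the 130 bases before the RefSeq start site, 5′ to 3′ along the gene, with matches to the searched letters in capitals.
Hist1h1a, chr13:23763538-23763667, plus strand: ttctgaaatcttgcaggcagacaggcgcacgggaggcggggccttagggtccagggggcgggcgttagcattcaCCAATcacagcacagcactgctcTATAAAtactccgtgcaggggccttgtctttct
Hist1h1b, chr13:21780626-21780755, minus strand: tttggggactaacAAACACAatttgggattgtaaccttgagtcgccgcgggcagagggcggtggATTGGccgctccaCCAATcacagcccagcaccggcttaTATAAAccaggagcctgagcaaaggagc
Hist1h1c, chr13:23738677-23738806, plus strand: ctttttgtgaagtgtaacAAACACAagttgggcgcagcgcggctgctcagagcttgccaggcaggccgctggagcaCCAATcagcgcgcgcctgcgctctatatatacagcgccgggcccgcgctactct
Hist1h1d, chr13:23554902-23555031, plus strand: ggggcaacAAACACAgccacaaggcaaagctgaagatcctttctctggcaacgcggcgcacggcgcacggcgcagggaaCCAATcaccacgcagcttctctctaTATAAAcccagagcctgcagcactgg
Hist1h1e, chr13:23622559-23622688, minus strand: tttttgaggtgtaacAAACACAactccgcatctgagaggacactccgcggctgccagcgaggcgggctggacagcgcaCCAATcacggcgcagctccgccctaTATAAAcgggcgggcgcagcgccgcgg
Hist1h1t, chr13:23695681-23695810, plus strand: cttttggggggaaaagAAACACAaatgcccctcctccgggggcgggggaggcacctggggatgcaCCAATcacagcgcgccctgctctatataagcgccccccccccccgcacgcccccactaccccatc
The H1 box began 112 to 122 bases before the start in 5 genes, all but Hist1h1a. Hist1h1t, the testis H1, had no peak over its start site, while the other 5 each had a peak over the RefSeq start. In those 5, CCAAT on the gene's strand began 51 to 56 bases before the start. In Hist1h1t it began 65 bases before the start, and the H1 box 114. TATAAA began 26 to 33 bases before the start in 4 genes, and Hist1h1c and Hist1h1t had none. For Hist1h1d the GENCODE start lies farther upstream, so its peak counts below as a peak within 1 kb only.

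Among the H4 genes, GGTCCG began 46 or 47 bases before the start in 6 genes. The 60 bases before the start are shown for 4 of the H4 genes, with the searched letters in capitals. Of these, Hist4h4 is not among the 6, as its GGTCCG began 32 bases before the start. The first 3 genes shown had a peak over the start site and the last did not.
Hist4h4, chr6:136804432-136804491, minus strand: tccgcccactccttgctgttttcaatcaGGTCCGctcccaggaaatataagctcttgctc
Hist1h4d, chr13:23581508-23581567, plus strand: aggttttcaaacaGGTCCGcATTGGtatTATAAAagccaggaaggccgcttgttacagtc
Hist1h4f, chr13:23551669-23551728, minus strand: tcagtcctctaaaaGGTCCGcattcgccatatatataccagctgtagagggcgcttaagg
Hist1h4m, chr13:21811686-21811745, plus strand: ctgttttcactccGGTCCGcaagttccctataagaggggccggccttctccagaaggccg

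Many H2A and H2B genes lie back to back and share the DNA between their starts. These stretches, read on the plus strand from the first-named start to the other, are shown for 2 pairs under a peak and for the germ-cell pair, which had none. Capitals mark the searched letters on either strand, so that ATTGG is CCAAT and ATGCAAAT is the octamer on the other strand.
Hist1h2ae to Hist1h2bg, chr13:23571221-23571399: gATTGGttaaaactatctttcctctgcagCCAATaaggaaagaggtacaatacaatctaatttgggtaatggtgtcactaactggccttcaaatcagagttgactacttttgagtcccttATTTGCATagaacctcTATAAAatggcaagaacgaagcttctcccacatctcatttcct
Hist1h2ah to Hist1h2bk, chr13:22035644-22035820: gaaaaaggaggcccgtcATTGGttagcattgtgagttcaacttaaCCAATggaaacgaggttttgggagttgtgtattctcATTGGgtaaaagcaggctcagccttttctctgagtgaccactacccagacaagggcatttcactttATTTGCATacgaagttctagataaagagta
Hist1h2ba to Hist1h2aa, chr13:23934157-23934436: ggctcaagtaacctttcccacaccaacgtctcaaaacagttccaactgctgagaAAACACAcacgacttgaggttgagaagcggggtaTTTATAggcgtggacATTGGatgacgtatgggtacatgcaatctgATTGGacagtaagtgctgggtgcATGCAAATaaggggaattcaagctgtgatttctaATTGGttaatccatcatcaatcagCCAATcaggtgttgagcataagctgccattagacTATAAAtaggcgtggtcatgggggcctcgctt
The germ-cell stretch holds the octamer, CCAAT and TATAAA, as does that of Hist1h2ae and Hist1h2bg. Its H1 box is in neither of the stretches shown under a peak. The box also occurred in the windows of Hist1h2ab and Hist1h2bm, which each had a peak over the start. The stretch between Hist1h2ak and Hist1h2bn (not shown), also under a peak, holds CCAAT but neither the octamer nor TATAAA. These few stretches do not show whether the letters separate genes with a peak from those without.

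A peak lay over the GENCODE start site of 53 of the 67 members (79.1%), against 39.4% of all 21951 protein-coding genes. Within 500 bp of the start it was 59 members and within 1 kb of the gene 60. The share at the start was 4 of 6 for H1, 14 of 18 for H2A, 15 of 18 for H2B, 9 of 12 for H3 and 11 of 13 for H4. The 7 members with no peak within 1 kb were Hist1h2bq, Hist1h2ao, Hist1h2ap, Hist1h2br, Hist2h3c1 and the germ-cell genes Hist1h2ba and Hist1h2aa.

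The authors kept only reads that map to 1 place. The share of each gene's 150-base words (the length of a read) that occur again in the genome was therefore counted. It was 100% for Hist1h2bq, Hist1h2ao, Hist1h2ap and Hist1h2br, 31.7% for Hist2h3c1, 11.9% for Hist1h2ba and 0 for Hist1h2aa. The promoter windows of Hist1h2bq and Hist1h2br had the same base at 300 of 300 positions, and those of Hist1h4m and Hist1h4n at 298 of 299. A read of that length lying wholly within any of the first 4 genes therefore has more than 1 place in the genome, while the germ-cell pair is mostly unique sequence. A word share of over 50% was also found in 12 of the 53 members with a peak over the start (median 22.9%, range 0 to 95.4%). The counts do not show where in a peak the reads lay. Whether repeated sequence accounts for the absent peaks was not tested.

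**Figure D1:**
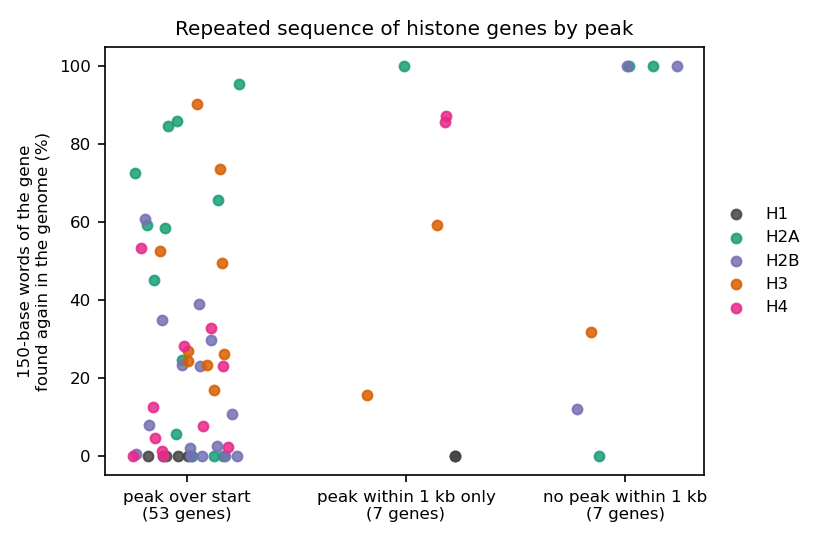
Share of each histone gene's 150-base words found again in the genome (y axis, percent) for genes with a peak over the start site, with a peak only within 1 kb, and with none; each point is 1 gene, coloured by histone family, with random sideways shift. Of the 7 genes with no peak, 4 lie at 100%, while the 53 genes with a start peak spread from 0 to 95.4%.

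The other 7 members had a peak within 1 kb but none over the GENCODE start. Hist1h4m (85.8% repeated words), Hist1h4n (87.2%), Hist2h3c2 (59.4%) and Hist2h2aa2 (100%) are copied genes, while Hist1h3c had 15.6% and Hist1h1d and Hist1h1t had 0. The peak nearest Hist1h1t covers the start of its neighbour Hist1h4c. No value in that peak can therefore be assigned to Hist1h1t.

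The histone peaks were broad. Their median width was 1266 bp (275 to 4556), against 477 bp over all peaks, and the 38 peaks over a histone start had a median of 1573 bp, against 1685 bp for the 7777 peaks over the start of any protein-coding gene. Of the 55 peaks, 25 covered 1 GENCODE start, 11 covered 2, 2 covered 3 and 17 covered none. The 13 peaks over several starts together covered 28 genes, and 8 of them covered H2A and H2B starts alone. The peak of Hist1h2ag, Hist1h2bj and Hist1h4i covered an H2A, an H2B and an H4 start. H3K27ac of these neighbours cannot be separated in the table. The starts of Bola1 and Trim17, which are no histone genes, lay within 1 kb of 1 peak each.

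Levels were compared as CPM (counts scaled to a common library size by TMM) per kb of peak, averaged over the 4 libraries. The 38 start peaks had a median level of 12.6 CPM per kb (7.12 to 24.03), while start peaks of all genes had 14.97 (quartiles 11.4 and 19.1), and 10 of the 38 lay above that median. Histone promoters were thus in the lower part of the usual promoter range by this measure, which divides uniquely mapped counts by the whole peak width. The median level over the genes of a family with a start peak was 17.9 CPM per kb for H1 (4 genes), 12.5 for H2A, 12.6 for H2B, 12.9 for H3 and 13.8 for H4. The median share of repeated words over all genes of a family was 0 for H1 and 58.9% for H2A. It was 11.25% for H2B, 29.3% for H3 and 12.5% for H4, and its part in these levels was not tested. Histone peaks over no GENCODE start had a median of 7.55 CPM per kb, close to the 7.24 of all peaks. The Hist1h1d and Hist1h2be peaks over a RefSeq start were among them (16.4 and 17.0).

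**Figure D2:**
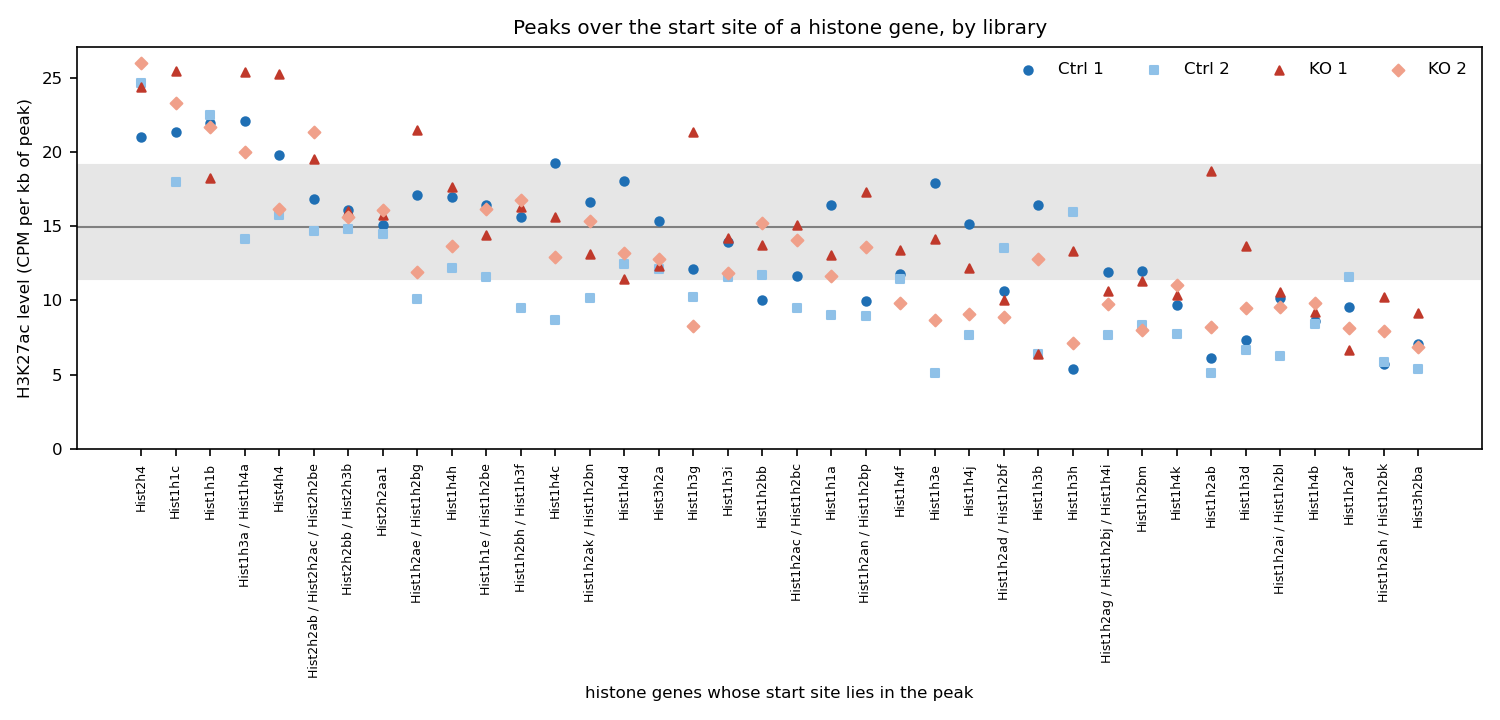
H3K27ac level (y axis, CPM per kb of peak) of the 38 peaks over a histone start site, labelled by the genes whose start they cover and ordered by mean; each symbol is 1 library. The grey band and line are the quartiles and the median (14.97) of the 7777 start peaks of all genes, and most histone peaks lie below that line while Ctrl 2 is often the lowest of the 4 libraries.

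The highest level was at Hist2h4, an H4 gene of the Hist2 cluster (peak chr3:96262143-96264919), with 21.02 and 24.6 CPM per kb in Ctrl 1 and Ctrl 2 and 24.4 and 26.1 in KO 1 and KO 2. Next came the linker histone genes Hist1h1c, with 21.4 and 18.0 in Ctrl and 25.5 and 23.3 in KO, and Hist1h1b, with 21.97 and 22.5 in Ctrl and 18.3 and 21.7 in KO. The 2 genes thus differed in direction, Hist1h1c being higher in both KO libraries and Hist1h1b lower in both. The peak over Hist1h4a and Hist1h3a had 22.1 and 14.1 CPM per kb in Ctrl and 25.4 and 20.01 in KO. Hist4h4, the lone member on chromosome 6, had 19.8 and 15.8 in Ctrl and 25.3 and 16.1 in KO. In these last 2 peaks the groups overlapped.

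The other peaks among the 10 highest were those at Hist2h2ab, Hist2h2ac and Hist2h2be (mean 18.1 CPM per kb), Hist1h2be (17.0), Hist1h1d (16.4), Hist2h3b and Hist2h2bb (15.7) and Hist2h2aa1 (15.4). Of these 10 peaks, 4 were in the Hist2 cluster, 3 belonged to H1 genes and none to the first 2 blocks of the Hist1 cluster other than Hist1h1b. The Hist1h2be peak covers the RefSeq start that lies next to the coding sequence, while the GENCODE start is farther upstream, in the peak of Hist1h1e.

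Of the remaining H1 genes, Hist1h1e shared a peak with the upstream start of Hist1h2be, with 16.4 and 11.6 CPM per kb in Ctrl and 14.4 and 16.2 in KO. Hist1h1a had a narrow peak of its own with 16.4 and 9.02 in Ctrl and 13.1 and 11.6 in KO. The groups overlapped in both, and Ctrl 2 was the lowest library in both. In the Hist3 cluster, Hist3h2a had 15.4 and 12.1 in Ctrl and 12.3 and 12.8 in KO, and Hist3h2ba, the lowest of the 38 start peaks, had 7.04 and 5.40 in Ctrl and 9.18 and 6.84 in KO. Near Hist2h3c2, whose own sequence is largely repeated, a peak over no start had 0.925 and 6.69 in Ctrl and 9.90 and 14.7 in KO, on 1, 11, 13 and 30 counts. A second peak near the same gene had 3.55 and 10.7 in Ctrl and 6.68 and 8.32 in KO, and the peak near Hist2h2aa2, a gene made wholly of repeated words, had 10.1 and 4.25 in Ctrl and 10.1 and 8.37 in KO. The groups overlapped in both of these and did not in the first, where Ctrl 1 had a single count.

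The comparison of KO with Ctrl asked whether the loss of Setd2 in Treg cells changed H3K27ac at these genes. H3K27ac counts do not measure whether Setd2 was deleted, so they give no check of the genotype labels. The whole count table held 2395002 to 4712473 counts per library, of which the histone peaks took 0.0815 to 0.104%. Markers of Treg and T cells (Foxp3, Il2ra, Ctla4, Ikzf2, Cd3e and Cd4) summed to 2256 to 3085 CPM per library, with 2256 and 2459 in Ctrl and 2647 and 3085 in KO. Markers of other cells summed to 9.95 to 14.6 CPM for B cells, 4.17 to 8.60 for CD8 T cells, 8.94 to 23.2 for myeloid cells (17.6 and 23.2 in Ctrl, 8.94 and 14.4 in KO) and 13.6 to 19.2 for epithelium, no peak being assigned to Ncr1, Cd8a, Ms4a1, Lyz2, Itgam and Krt8. The part of these differences in the histone results was not tested.

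Summed over all 55 peaks, the histone genes had 1099 and 880 CPM in Ctrl 1 and Ctrl 2 and 1168 and 1085 in KO 1 and KO 2. The means were 990 ± 155 and 1126 ± 58.7 CPM (SD, n = 2 each), a log2 ratio of 0.19 (KO over Ctrl), and the groups overlapped because Ctrl 1 exceeded KO 2 (exact permutation test, two-sided, p = 0.667). With 2 libraries a group this test cannot go below 0.333. In these pooled cells, more S phase cells and more H3K27ac per cell cannot be told apart.

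By cluster, Hist1 had 804 and 604 CPM in Ctrl and 841 and 767 in KO (log2 ratio 0.20), and within it the third block (29 genes) had 557 and 412 against 600 and 533 (0.24). Ctrl 2 was the lowest library in each of the first 3 blocks. Hist2 had 204 and 204 CPM in Ctrl and 227 and 241 in KO (log2 ratio 0.20), the only one of the 4 clusters whose groups did not overlap (exact permutation p = 0.333, the smallest possible, and 0.889 after Benjamini-Hochberg adjustment over the 8 sums compared). Hist3 had 43.9 and 35.4 CPM in Ctrl and 39.9 and 38.3 in KO (log2 ratio -0.01), and Hist4 had 47.0 and 37.5 in Ctrl and 59.99 and 38.3 in KO (0.19). Block 1 of Hist1 had 185 and 149 against 178 and 178 (0.11), and block 2 had 62.4 and 43.2 against 63.0 and 55.6 (0.19). Without Ctrl 2 the ratio was -0.05 for block 1 and -0.07 for block 2, without KO 1 it was -0.15 for Hist4, and without Ctrl 1 it was 0.13 for Hist3, so the sign in each of these 4 rested on 1 library. Without Ctrl 2 the ratio was 0.04 for all 55 peaks, 0.0013 for Hist1 and 0.02 for block 3, and without Ctrl 1 these were 0.35, 0.40 and 0.45. The Hist2 ratio lay between 0.12 (without KO 2) and 0.22 with any 1 library left out. With a loess offset that removes the trend of fold change with abundance, the Hist2 ratio was 0.084.

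**Figure D3:**
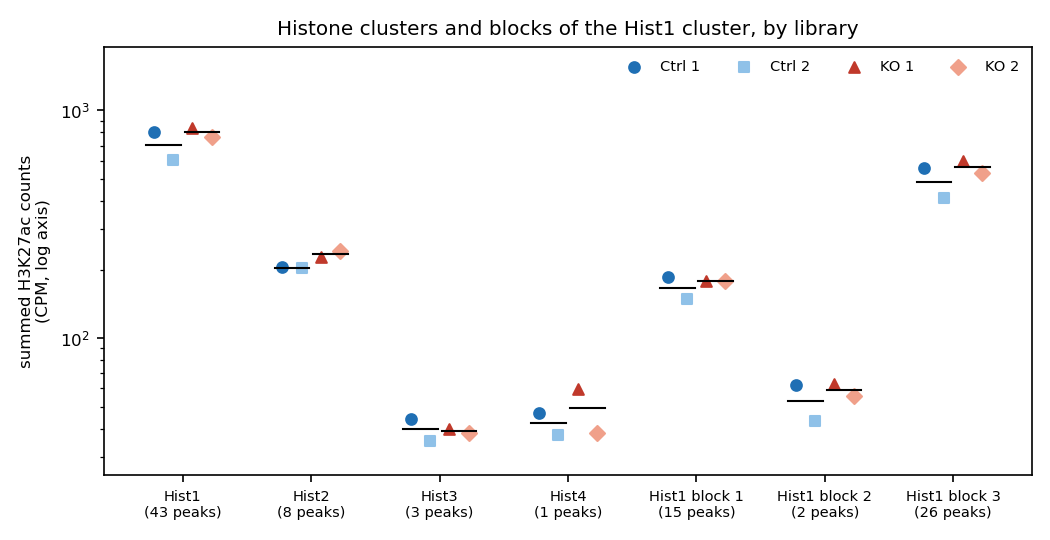
Summed H3K27ac counts (y axis, CPM, log axis) of each histone cluster and of the first 3 blocks of Hist1, for each library (symbols) with the mean of each group (short lines). Hist2 is the only cluster in which both KO libraries (227 and 241) lie above both Ctrl libraries (204 and 204).

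Of the 55 peaks, 48 had a count of 10 or more in 2 or more libraries and were tested, and 7 were too low to test. No histone peak passed at an adjusted p under 0.05 (lowest 0.998, edgeR quasi-likelihood test over 74550 peaks), where 0.00134% of all tested peaks did, and DESeq2 also called none. At an unadjusted p under 0.05, edgeR gave 1 histone peak higher in KO and 0 lower, against 1.45% and 2.79% of all tested peaks, and DESeq2 gave 0 in each direction. These p-values measure only the spread between the pools of cells, which may be technical.

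That peak covers the start of Hist1h2ab, an H2A gene (chr13:23750927-23751742). It had 11 and 14 counts in Ctrl 1 and Ctrl 2 and 41 and 28 in KO 1 and KO 2, or 4.98, 4.17, 15.3 and 6.71 CPM. KO 1 alone stood far above the rest, and KO 2 lay just above Ctrl 1. The estimate on the log2 scale, 1.25 ± 0.60 (SE), had an unadjusted p of 0.0366 and an adjusted p of 0.998 in edgeR. Without Ctrl 1 or without KO 1 no histone peak had an unadjusted p under 0.05 in edgeR. Of its 150-base words, 21.9% occur again in the genome. The 150 bases before the start, shown because this was the peak with the lowest p, hold in capitals the octamer and CCAAT on the other strand, then CCAAT on the gene's strand, the H1 box and the TATA box.
Hist1h2ab, chr13:23750938-23751087, plus strand: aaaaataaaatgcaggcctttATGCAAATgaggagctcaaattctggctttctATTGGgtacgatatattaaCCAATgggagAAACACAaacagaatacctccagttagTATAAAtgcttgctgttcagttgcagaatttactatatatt

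In direction, 37 of the 48 tested peaks had a log2 fold change above 0, against 49.2% of all tested peaks. The median was 0.19 (-0.51 to 1.58), against -0.01 over all tested peaks. The KO libraries were both higher than either Ctrl library at 14 peaks (29.2%, background 16.9%) and both lower at 3 (background 16.4%). The share with both KO libraries higher was 27.2% of all peaks in abundance decile 10 (the highest mean levels) and 19.4% in decile 9. In the Hist2 cluster all 7 tested peaks had a log2 fold change above 0, and at 3 of them the groups did not overlap. Among the 13 peaks over several start sites 12 were above 0, and among the 16 tested peaks with no repeated word 12 were.

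Direction moved with abundance over all tested peaks, and with scaling and with Ctrl 2 at the histone peaks. Over all tested peaks, the share with a log2 fold change above 0 was 74.3% in decile 10, which held 14 of the histone peaks, 59.4% in decile 9, which held 10, and 52.5% in decile 8, which held 11. The share among all tested histone peaks was 77.1%. All 10 tested histone peaks over no GENCODE start lay above 0, against 27 of the 38 over a GENCODE start. The median level of the 10 in edgeR was lower, with a log2 CPM of 2.4 against 4.3. Among the 10 were the Hist1h1d and Hist1h2be peaks that lie over a RefSeq start (0.30 and 0.28). With total counts as library size, 30 histone peaks lay above 0 (62.5%, against 43.9% of all tested peaks) and 18 below. With a loess offset that removes the trend with abundance, 31 lay above 0 (64.6%, against 48.2%) and 17 below. In the 23 histone peaks with a count of 50 or more in 2 or more libraries, 13 lay above 0 and 10 below. Their median was 0.02, and 50.02% of all peaks passing this filter lay above 0. On the log2 scale the histone peaks deviated from their mean over libraries by a median of 0.04 in Ctrl 1 and -0.28 in Ctrl 2. In KO 1 this median was 0.16 and in KO 2 it was 0.07. Without Ctrl 2 the histone peaks split into 23 above and 23 below 0 (median 0.01), with 51.2% of all tested peaks above 0. Without Ctrl 1 the median log2 fold change of the histone peaks was 0.43. KO 2 exceeded Ctrl 2 at 40 of the 48 peaks (50.6% over all peaks), and KO 1 exceeded Ctrl 1 at 29 (50.8%).

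**Figure D4:**
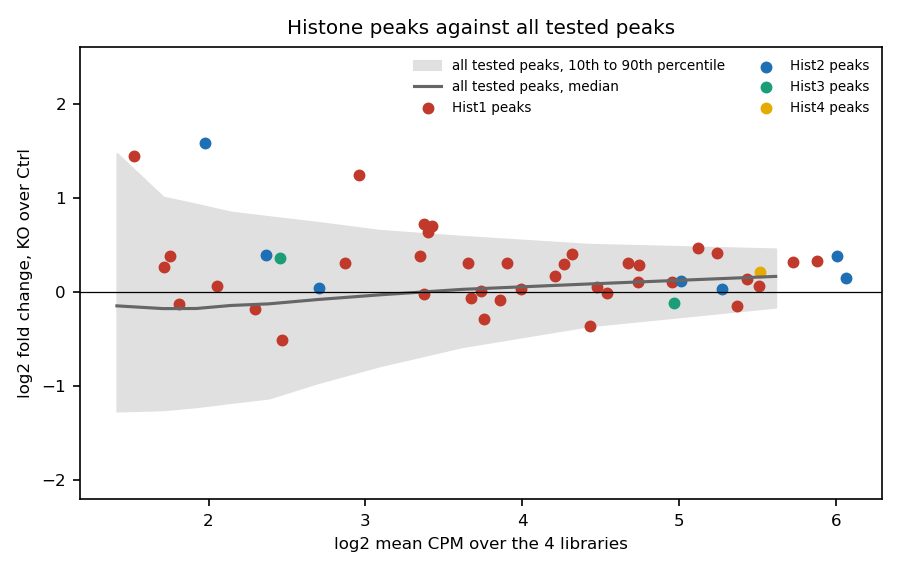
Log2 fold change of KO over Ctrl (y axis) against the log2 mean CPM over the 4 libraries (x axis) for the 48 tested histone peaks, coloured by cluster. The line and band are the median and the 10th to 90th percentile of all tested peaks in each abundance decile; the line rises from left to right to 0.16, and the more abundant histone peaks lie around it.

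Among the named peaks, Hist1h1c had 51.1 and 43.1 CPM in Ctrl and 61.1 and 55.8 in KO (a change of 0.31 ± 0.31 in log2, SE), and Hist1h1b had 43.0 and 44.0 in Ctrl and 35.8 and 42.4 in KO (-0.15 ± 0.32). The peak of Hist2h2ab, Hist2h2ac and Hist2h2be had 59.7 and 52.1 CPM in Ctrl and 69.3 and 76.0 in KO (0.38 ± 0.30). The interval spanned by 2 standard errors around each estimate included 0, and the same held for Hist2h4 (0.14 ± 0.29), Hist4h4 (0.21 ± 0.31), Hist1h1d (0.30 ± 0.37) and Hist3h2a (-0.12 ± 0.34). At these listed peaks the changes were within the error of a 2 against 2 design at this depth. This does not show that H3K27ac was alike in the genotypes.

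Genes that work with the replication-dependent histones were read from a table of counts summed per gene. In it no gene of 12699 passed (0.0%) at an adjusted p under 0.05 in edgeR or in DESeq2. At an unadjusted p under 0.05, edgeR gave 0.724% higher and 2.64% lower in KO, and 48.1% of genes had a log2 fold change above 0 (median -0.02). The histone members in this table (44 tested, each peak given to the nearest start) had 33 above 0 and 11 below, with a median of 0.19 and none at an unadjusted p under 0.05. Without Ctrl 2 they split into 21 above and 22 below 0 (median -0.02), and without Ctrl 1 the median was 0.45.

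Replacement histone variants, which are made outside S phase as well, had peaks assigned to 9 of 11 genes, with 6 above 0 and 3 below and a median log2 fold change of 0.07. H2afy, which encodes macroH2A1, had 171 and 249 CPM in Ctrl and 136 and 185 in KO, and H2afz, which encodes H2A.Z, had 85.5 and 54.5 in Ctrl and 85.3 and 70.7 in KO. The groups overlapped in both, and none of the 9 had an unadjusted p under 0.05 in edgeR or DESeq2. H2afy2 and H1fx had no peak assigned. The median of the list ran from 0.0010 (without KO 1) to 0.31 (without Ctrl 1) with 1 library left out, being 0.01 without Ctrl 2, and total counts as library size gave 4 above 0 and 5 below (median -0.0060).

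Factors that transcribe histone genes or process their mRNAs were represented by 16 of 17 listed genes, Symplk not being matched. A log2 fold change above 0 was seen in 4 and below 0 in 12 (median -0.04), with none at an unadjusted p under 0.05 in edgeR or DESeq2. The direction was not stable, with 8 and 8 in DESeq2, 9 above and 7 below with the loess offset (median 0.02), and 8 above and 7 below without Ctrl 2 (0.04), while the median was -0.12 with total counts, -0.17 without Ctrl 1 and -0.30 without KO 2. Cpsf2, a subunit of the cleavage complex, had 118 and 117 CPM in Ctrl and 127 and 116 in KO, and Pou2f1, which encodes the octamer-binding factor Oct-1, had 129 and 91.4 in Ctrl and 105 and 82.2 in KO. Npat, the coactivator of histone genes in S phase, and Slbp, which binds the stem-loop, are named for these roles after their values were seen. Npat had 48.0 and 49.7 CPM in Ctrl and 50.7 and 44.6 in KO, and Slbp had 72.8 and 89.3 in Ctrl and 65.2 and 86.5 in KO. The groups overlapped in all 4.

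Histone chaperones carry histones to DNA. Of 13 such genes, 11 had a log2 fold change below 0 and 2 above (48.1% of all genes above), with a median of -0.39. In edgeR 4 had an unadjusted p under 0.05, all lower in KO, against the background of 2.64%. DESeq2 also gave 4, where 195 of all 12699 genes were lower. Chaf1a, the large subunit of the replication-coupled chaperone CAF-1, had 126 and 146 CPM in Ctrl and 73.0 and 76.9 in KO (a change of -0.86 ± 0.24 in log2, SE). Rbbp4, a histone-binding subunit of CAF-1 and of other complexes, had 21.7 and 25.9 CPM in Ctrl and 4.47 and 6.47 in KO (-2.10 ± 0.47). Hira, a chaperone of the variant H3.3, had 96.8 and 132 in Ctrl and 68.9 and 74.0 in KO (-0.68 ± 0.26). Nap1l1, a chaperone of H2A and H2B, had 129 and 109 in Ctrl and 82.7 and 63.5 in KO (-0.70 ± 0.26). In each of these 4 genes the KO libraries were both lower than either Ctrl library, and none passed after adjustment over all genes (edgeR, adjusted p = 0.9997 each). The median of the list was between -0.61 (without KO 2) and -0.41 with any 1 library left out, and without KO 2 the genes with an unadjusted p under 0.05 in edgeR were 2.

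S phase genes encode replication and nucleotide synthesis proteins and cell cycle regulators. Of 26 members, 20 lay below 0 and 6 above (48.1% of all genes above), with a median log2 fold change of -0.23. Those with an unadjusted p under 0.05 in edgeR were 3, all lower in KO, against 2.64% of all genes. DESeq2 also gave 3, where 195 of all 12699 genes were lower. Mki67, which encodes the proliferation marker Ki-67, had 206 and 187 CPM in Ctrl and 124 and 137 in KO (-0.59 ± 0.22). Cdc45, a part of the replicative helicase, had 85.1 and 109 in Ctrl and 47.7 and 52.2 in KO (-0.96 ± 0.26), and Lig1, the ligase that joins replicated fragments, had 64.2 and 54.5 in Ctrl and 39.1 and 28.3 in KO (-0.82 ± 0.30). The most abundant gene of the list, E2f2, a cell cycle transcription factor, had 170 and 239 in Ctrl and 206 and 289 in KO (0.27 ± 0.26). Without Ctrl 2 the median of the list was -0.08, with 16 genes below 0 and 10 above, and without Ctrl 1, Ctrl 2 or KO 2 only 1 gene had an unadjusted p under 0.05 in edgeR.

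With all 4 libraries, the histone genes and the S phase and chaperone lists had medians on opposite sides of 0, 0.19 for the histone peaks against -0.23 and -0.39. Without Ctrl 2 this did not hold in the gene table, where the medians were -0.02 for histone members, -0.08 for S phase genes and -0.43 for chaperones. The difference between the lists was not tested.

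**Figure D5:**
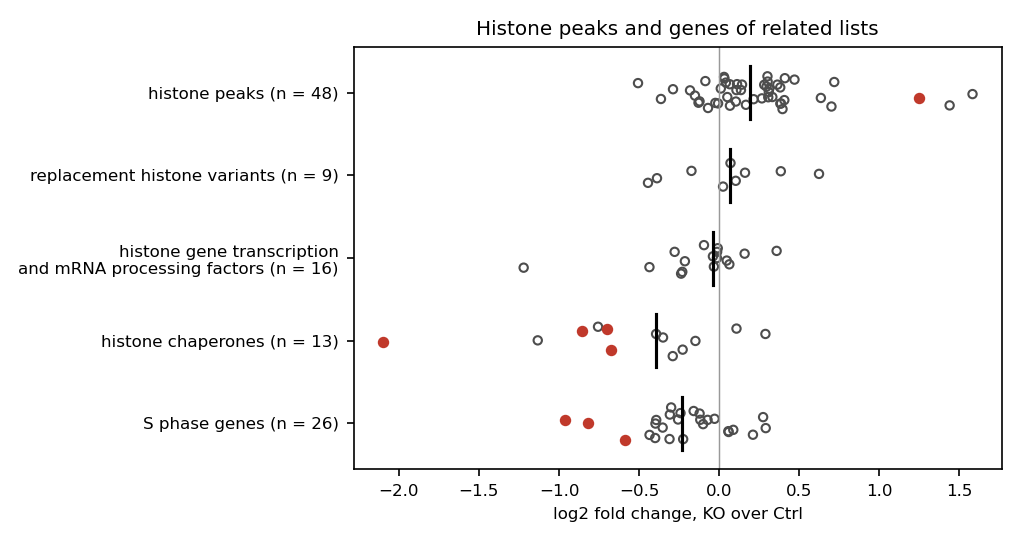
Log2 fold change of KO over Ctrl (x axis) for the 48 tested histone peaks and for the genes of 4 related lists, 1 point each with random vertical shift; the vertical bars are medians, and filled points have an unadjusted edgeR p under 0.05. The filled points are 1 histone peak on the right, and 4 chaperones and 3 S phase genes on the left.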

How the data were processed

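H3K27ac CUT&Tag of 4 libraries was analysed. The authors trimmed reads, aligned them to mm10 with Bowtie2, kept uniquely mapped reads, removed duplicates, called peaks with MACS2 against IgG, merged peak sets with bedtools and counted reads per merged peak, and the deposited values are these raw counts. Tool versions are not given in the sources used here. Peak starts were read as BED positions, so 1 was added.

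Peaks with a count of 10 or more in 2 or more libraries (74550 of 124158) were tested with edgeR 4.0.16 (TMM, quasi-likelihood test, R 4.3.3), with Benjamini-Hochberg adjustment over all of them. DESeq2 1.42.0 was an alternative. For gene values, each peak was given to the nearest start site. Nothing in the labels says how far the 2 pools of a group are independent.

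The members, lists and tests were chosen with earlier results of these data known. Genes named with values were the clusters, the 10 highest peaks per kb, the germ-cell, H1, Hist2, Hist3 and Hist4 members, up to 5 higher and 5 lower peaks with an unadjusted p under 0.05 and non-overlapping groups, and in each related list the 2 genes of highest CPM and those with an unadjusted p under 0.05. The alternatives were other scalings, filters, halved counts, a replicate block, leaving out each library, and other distances of peak to gene. Counts limit the precision of single peaks, and intervals from counts would cover counting error only.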

Additional observations from a re-analysis of the deposited data

How the results depend on the processing

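The count of histone peaks with an adjusted p under 0.05 was 0 under every alternative run. The count at an unadjusted p under 0.05 higher in KO, 1 in the edgeR test, was 0 with DESeq2, with total counts as library size, with a minimum of 50 counts and with halved counts, 2 with the loess offset, and 0 to 1 with 1 library left out. The median log2 fold change was 0.0236 with a minimum of 50 counts and 0.0095 to 0.434 with 1 library left out. Over all peaks the 1 call higher in KO became 0 with DESeq2, with any count in any library, with a minimum of 50 counts and with halved counts, and 0 to 1 with 1 library left out. The causes were not tested.

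Same-numbered libraries deviated together (correlation over all tested peaks 0.253, over histone peaks 0.224), but no label ties the 2 numbers to a shared batch, and they were not taken as pairs. With the replicate block, all tested peaks gave 152 higher and 59 lower calls, and histone peaks gave 0 calls (lowest adjusted p 0.438) and 5 at an unadjusted p under 0.05. Also with the replicate block, Hist1h1a had a log2 fold change of 0.0214, and H2afy, Chaf1a, Nap1l1, Hira, Rbbp4, Mki67, Cdc45 and Lig1 passed at an adjusted p under 0.05 in edgeR, as did 912 of all 12699 genes and none of the 44 histone members of the gene table.

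Of the cluster ratios, Hist3 changed sign with peaks within 5 kb (0.0344). With the loess offset the ratio was 0.098 for all clusters, 0.117 for Hist1, 0.084 for Hist2, -0.123 for Hist3 and 0.055 for Hist4. With total counts as library size these were 0.116, 0.127, 0.119, -0.090 and 0.113. With 1 library left out the ratio ran from -0.164 to 0.134 for Hist3, -0.149 to 0.484 for Hist4, -0.0471 to 0.253 for block 1 and -0.0748 to 0.447 for block 2. Among named peaks and genes, 298 of 340 alternative values kept their direction and side of the threshold. With total counts the log2 fold change turned to -0.0457 for the peak of Hist2h3b and Hist2h2bb, -0.0246 for Hist1h4c, -0.0408 for the second peak of Hist2h3c2 and -0.0289 for Cpsf2. With the loess offset it turned to -0.0288 for Hist2h4, -0.0895 for Hist2h3b and Hist2h2bb and -0.0159 for Hist1h4c. With a minimum of 50 counts it turned to -0.0843 for Hist2h3b and Hist2h2bb, -0.0063 for Hist2h2aa1 and -0.0618 for Hist1h4c. With halved counts it turned to -0.0296 for Hist2h3b and Hist2h2bb and -0.0704 for the second peak of Hist2h3c2, and with any count to 0.0226 for Hist1h4f and 0.0120 for Hist1h1a.

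With 1 library left out, log2 fold changes that changed sign ran from -0.154 to 0.480 for Hist4h4, -0.0282 to 0.632 for Hist1h2be, -0.0254 to 0.0838 for Hist2h3b and Hist2h2bb, -0.256 to 0.177 for Hist1h4f, -0.0953 to 0.391 for Hist1h1e, -0.435 to 0.700 for Hist1h4c, -0.413 to 0.440 for Hist1h1a, -0.286 to 0.0447 for Hist3h2a, -0.505 to 1.08 for the second peak of Hist2h3c2 and -0.131 to 1.09 for Hist2h2aa2. Among genes they ran from -0.134 to 0.508 for H2afz, -0.0342 to 0.0792 for Cpsf2, -0.461 to 0.0278 for Pou2f1 and -0.0279 to 0.549 for E2f2. Other filters, halved counts and other distances were not run for the gene table. Low counts limit single peaks near copied genes.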
